A study of Mus musculus with 32 samples.

Results

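The replication-dependent histone genes of the mouse clusters were followed in the transcriptomes of male C57BL/6J germ cells across the first wave of spermatogenesis. Members were all genes whose symbol starts with Hist1h, Hist2h, Hist3h or Hist4h in the GENCODE M21 annotation, apart from the 3 testis histones Hist1h1t, Hist1h2ba and Hist1h2aa. The rule found 67 genes, of which 62 had values among the 85539 genes of the juvenile table and 61 had values in the adult table. The 67 comprised 5 H1, 19 H2A, 18 H2B, 12 H3 and 13 H4 genes. By symbol, 53 of them belonged to Hist1 on chromosome 13, 10 to Hist2 on chromosome 3, 3 to Hist3 on chromosome 11 and 1 to Hist4 on chromosome 6. Hist1h2al, Hist1h2aj and Hist3h2bb-ps are annotated as pseudogenes. Hist1h2al, at chr13:51202727-51203065, lies far from the other Hist1 members. Hist1h3h, Hist1h3i, Hist2h2bb, Hist1h2bm and Hist1h2bh had no value in the juvenile table and Hist1h1a had none in the adult table, and these values were not analysed here.

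Germ cells came from 28 untreated wild-type juvenile mice, 3 aged 8 days postpartum (dpp) and 5 for each later age (10, 12, 14, 16 or 18 dpp), with every mouse kept as a separate sample. The 4 adult samples were pachytene and diplotene spermatocytes enriched by STA-PUT, which separates cells by sedimentation at unit gravity, and each pooled cells of 6 mice aged 9 weeks. Libraries were selected for poly-A RNA, and levels are given in TPM, a gene's share of all transcripts scaled to a fixed total per sample and corrected for transcript length, so that levels of different genes can be set side by side. The adult values were normalized in a table of their own and are placed beside the juvenile values with no test.

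Replication-dependent histones package newly replicated DNA, and their genes lie in clusters, have mostly no introns and are transcribed chiefly in S phase. Their messages normally end in a conserved stem-loop instead of a poly-A tail. The stem-loop is bound by SLBP, and the U7 small nuclear RNP with its cleavage factors cuts the message just downstream of it. Some of these genes also give rise to polyadenylated messages, particularly in cells that have stopped dividing. In the testis, spermatogonia divide by mitosis, preleptotene spermatocytes pass through the last S phase, and later meiotic and haploid cells gradually take up testis-specific histones. A library selected for poly-A RNA does not sample messages that end at the stem-loop, so every level below refers to polyadenylated forms.

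The stem-loop is shown for the members on which the results turned, read from the M21 transcripts on GRCm38, with the 16 bases of the stem-loop in capitals and up to 7 bases on each side in lower case.
Hist2h2aa1: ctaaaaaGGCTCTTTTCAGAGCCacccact
Hist2h2aa2: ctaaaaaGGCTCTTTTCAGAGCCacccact
Hist2h2ac: ccaaaaaGGCTCTTTTTAGAGCCaccaaat
Hist3h2a: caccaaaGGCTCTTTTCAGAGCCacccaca
Hist1h1c: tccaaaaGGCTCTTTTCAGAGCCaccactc
Hist1h2bp: acacaaaGGCTCTTTTCAGAGCCacccaca
Hist1h4h: aaccaaaGGCCCTTTTCAGGGCCgcccaca
Hist1h3c: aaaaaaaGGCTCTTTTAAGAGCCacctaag
These windows lie at chr3:96246025-96246054 on the plus strand for Hist2h2aa1, chr3:96239777-96239806 on the minus strand for Hist2h2aa2 and chr3:96220411-96220440 on the minus strand for Hist2h2ac. Those of Hist3h2a, Hist1h1c, Hist1h2bp and Hist1h4h lie on the plus strand at chr11:58955165-58955194, chr13:23739505-23739534, chr13:21787916-21787945 and chr13:23531451-23531480. That of Hist1h3c lies at chr13:23745040-23745069 on the minus strand. The letters searched were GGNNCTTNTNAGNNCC on the transcript's own strand after the stop codon, a pattern chosen after member sequences had been looked at. Transcripts of 43 of the 62 members held them, in 8 versions, and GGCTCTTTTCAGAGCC was the version in 25 of the 44 member transcripts with a match. Of 141692 transcripts of other genes, 0.188% held these letters at any position.

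The annotated 3′ ends fell into 3 kinds. The annotated transcript ended within 60 bases after the stem-loop in 21 members and ran more than 60 bases past it in 22, and the remaining 19 had no such letters in the annotated transcript. The absence of a match says only that the letters are not in the annotated transcript, and several of these models stop at or near the stop codon. Hist2h2aa1 and Hist2h2aa2 both ended 35 bases after the stem-loop, and neither annotated transcript held the poly-A signal AATAAA or ATTAAA in those bases. Hist1h1c ran 840 bases and Hist3h2a 1643 bases past it. Neither Hist2h2be, with 2192 bases after the stop codon, nor the 2-exon Hist1h2bc, with 742, held the letters, and both held the poly-A signal AATAAA or ATTAAA after the stop codon. The median of the members' mean TPM over the 28 mice was 1.17 for those ending near the stem-loop, 0.382 for those running past it and 0.334 for those without the letters, and the ranges overlapped.

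**Figure D1:**
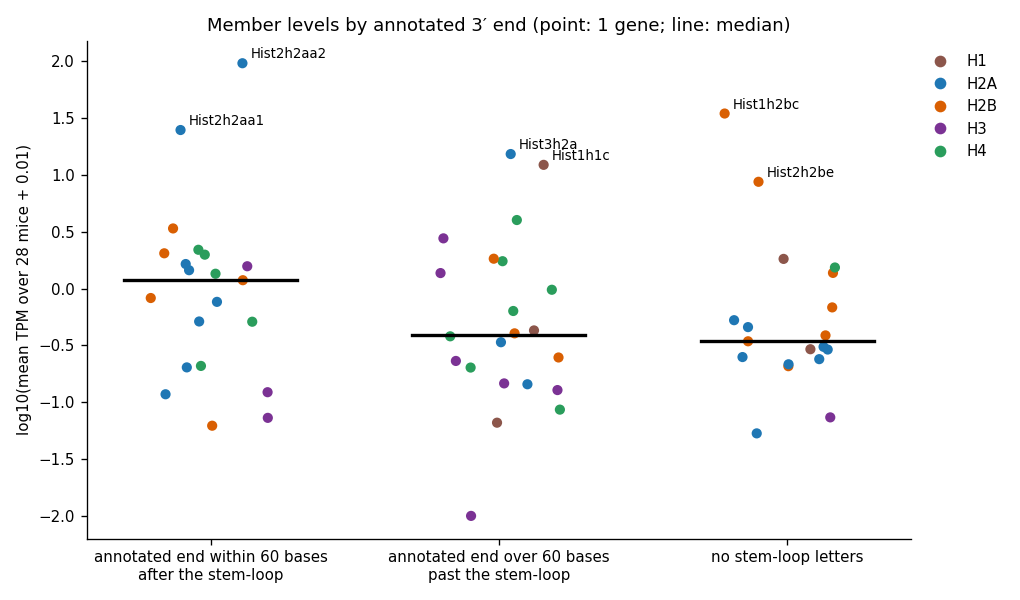
Mean level of each of the 62 members over the 28 juvenile mice, as log10(mean TPM + 0.01), by the kind of annotated 3′ end, with 1 point for each gene colored by histone class and a line at the median. The members of highest level are spread over all 3 kinds, with Hist2h2aa1 and Hist2h2aa2 among those ending near the stem-loop and Hist1h2bc and Hist2h2be among those without its letters.

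Most members were low or absent in poly-A RNA, and 7 made up most of the signal. Hist2h3c1 was listed at 0 in every mouse. All of its stretches of 100 bases also occurred in Gm20634, which overlaps it on the same strand and had means of 4.86 to 13 TPM by age. The listed 0 thus rests on how reads were divided and does not show that Hist2h3c1 was absent. In all, 14 of the 62 members, including it, stayed under 1 TPM in every mouse, and 28 reached 3 TPM in at least 1 mouse and were tested. Only 7 members had a mean of at least 10 TPM at any age or in the adult samples. These were the H2A genes Hist2h2aa1, Hist2h2aa2 and Hist3h2a, the H2B genes Hist1h2bc, Hist2h2be and Hist1h2bp, and the linker histone gene Hist1h1c. No H3 or H4 member reached this level. Summed over the remaining 55 members, the mice of 8 dpp averaged 41.3 ± 4.29 TPM (SD, n = 3), those of 10 and 18 dpp 45.5 and 43.7 TPM (SD 9.15 and 5.58, n = 5 each) and the adult samples 33.1 ± 3.92 TPM (n = 4), with the age ranges overlapping.

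The summed level of all members was highest at 18 dpp among the juvenile ages. At 8 dpp it averaged 165.7 ± 8.27 TPM (SD, n = 3), and at 10 dpp 159.5 ± 17.2 TPM (n = 5 here and at later ages). The mice of 12 and 14 dpp averaged 225.1 ± 18.3 and 218.5 ± 10.1 TPM, those of 16 dpp 266.2 ± 25.2 TPM and those of 18 dpp 354.7 ± 42.0 TPM. The adult samples summed to 475.9 ± 20.3 TPM (n = 4). The lowest 18 dpp mouse, at 316.0 TPM, lay above the highest mouse of every earlier age, at 292.4 TPM. In these bulk samples, fewer cells of a type and less RNA per cell cannot be told apart.

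The increase lay in H2A and, to a lesser extent, H2B. H2A members summed to 86.7 ± 6.36 TPM at 8 dpp, 241.8 ± 43.0 at 18 dpp and 363.4 ± 19.7 in the adult samples. H2B members summed to 39.6 ± 4.67, 78.4 ± 3.25 and 96.1 ± 2.36 TPM in the same groups. The H1 sum went the other way, from 20.2 ± 3.76 TPM at 8 dpp to 11.9 ± 3.35 at 18 dpp and 1.24 ± 0.640 in the adult samples, where it lacks Hist1h1a. The mice of 8 and 18 dpp overlapped in this sum, and with the authors' gene table in place of summed transcripts it was 21.1 ± 2.76 and 14.5 ± 3.34 TPM. H3 stayed between group means of 4.80 and 8.03 TPM and H4 between 13.7 and 18.5 TPM at the 6 ages, with 3.79 and 11.3 TPM in the adult samples.

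**Figure D2:**
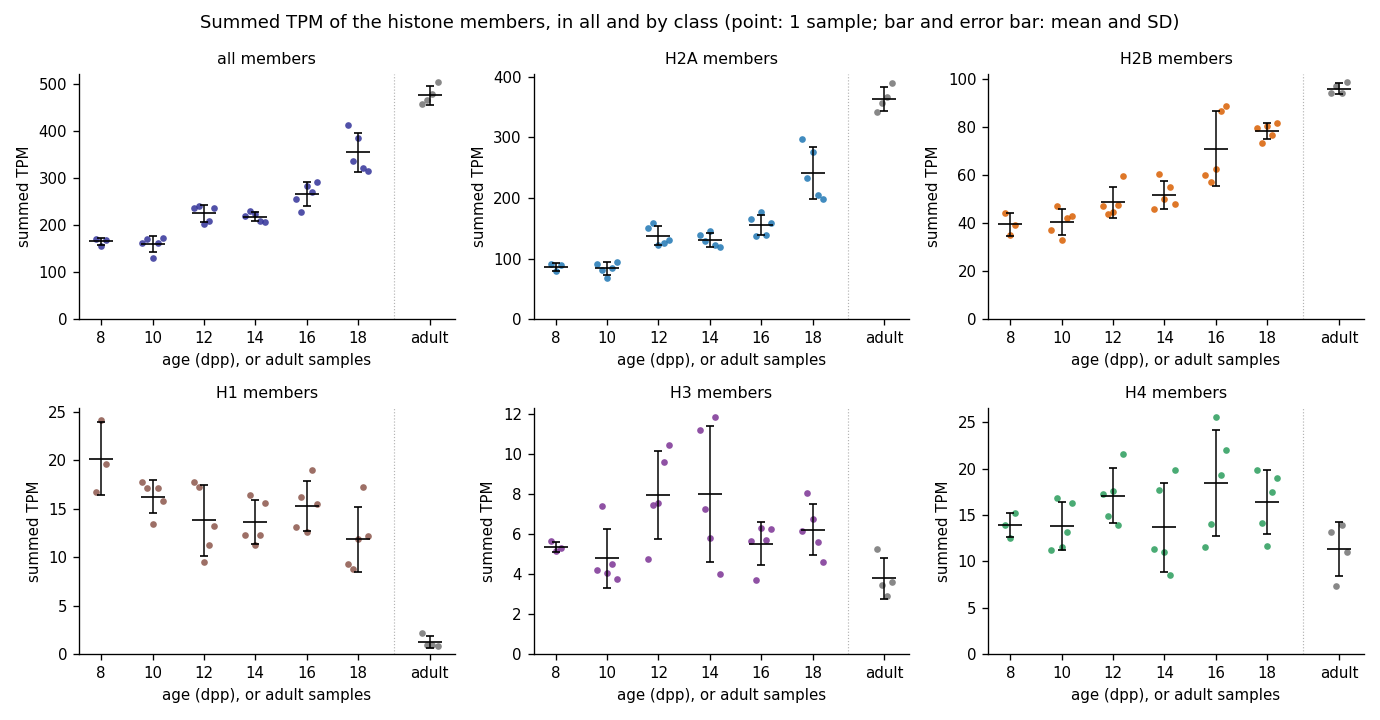
Summed TPM of all members and of each histone class (vertical axes) at each age in days postpartum and in the adult samples (horizontal axes), with 1 point for each sample and bars for the mean and SD. The sum of all members is highest at 18 dpp among the juvenile ages, the H2A sum is 86.7 TPM at 8 dpp and 241.8 TPM at 18 dpp, and the H1 sum is 1.24 TPM in the adult samples.

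The 4 clusters contributed differently. Hist2 members made up 45.0% ± 0.983 of the summed TPM at 8 dpp (SD, n = 3), 69.4% ± 6.65 at 18 dpp (n = 5) and 85.2% ± 0.490 in the adult samples (n = 4). The Hist1 members, the most numerous, summed to 77.5 ± 3.44 TPM at 8 dpp, 83.2 ± 13.2 at 18 dpp and 45.4 ± 3.88 in the adult samples. Hist3 summed to 13.5 ± 0.246, 23.5 ± 2.28 and 24.6 ± 1.16 TPM, and the single Hist4 gene, Hist4h4, had a mean under 0.22 TPM in every group.

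Ages were compared gene by gene with limma on log2(TPM + 1) over all 20365 genes with at least 3 TPM in at least 1 mouse, and a call is an adjusted p under 0.05. Among the 28 tested members, 15, or 53.6%, differed over the 6 ages, against 77.6% of all genes. Between 18 and 8 dpp, 13 members were called, 9 higher and 4 lower at 18 dpp. Calls were made for 68.2% of all genes in that comparison, 31.8% higher and 36.3% lower. Members were thus not called more often than genes in general in either comparison. Hist1h4j, Hist1h2bp, Hist1h2ah, Hist1h4b and Hist2h2ac reached 3 TPM at 1 age only, so their level at that age decided that they were tested, and these counts describe the tested members alone. Differences of members near 0 TPM depend on the 1 TPM added before the log, and for these the differences with 5 and with 0.1 TPM added are given as well. The median log2 fold change from 8 to 18 dpp was 0.0117 over the tested members and -0.0943 over all genes.

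The steps between neighboring ages gave few calls. No member was called between 8 and 10 dpp, where 1.2% of all genes were (0.977% higher and 0.226% lower at 10 dpp), and 4 members had an unadjusted limma p under 0.05. Between 10 and 12 dpp, 5 members were called, 4 higher and 1 lower at 12 dpp, against 21.4% of all genes, 12% higher and 9.37% lower. No member was called between 12 and 14 dpp, where 0.177% of all genes were (0.162% higher and 0.0147% lower at 14 dpp), and 1 member had an unadjusted limma p under 0.05. Between 14 and 16 dpp, 3 members were higher at 16 dpp, against 24% of all genes, 12.7% higher and 11.3% lower. Between 16 and 18 dpp, 4 members were higher and 3 lower at 18 dpp, against 54% of all genes, 23.5% higher and 30.6% lower, and this count of 7 was 4 without mouse 2 or without mouse 3 of 18 dpp.

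**Figure D3:**
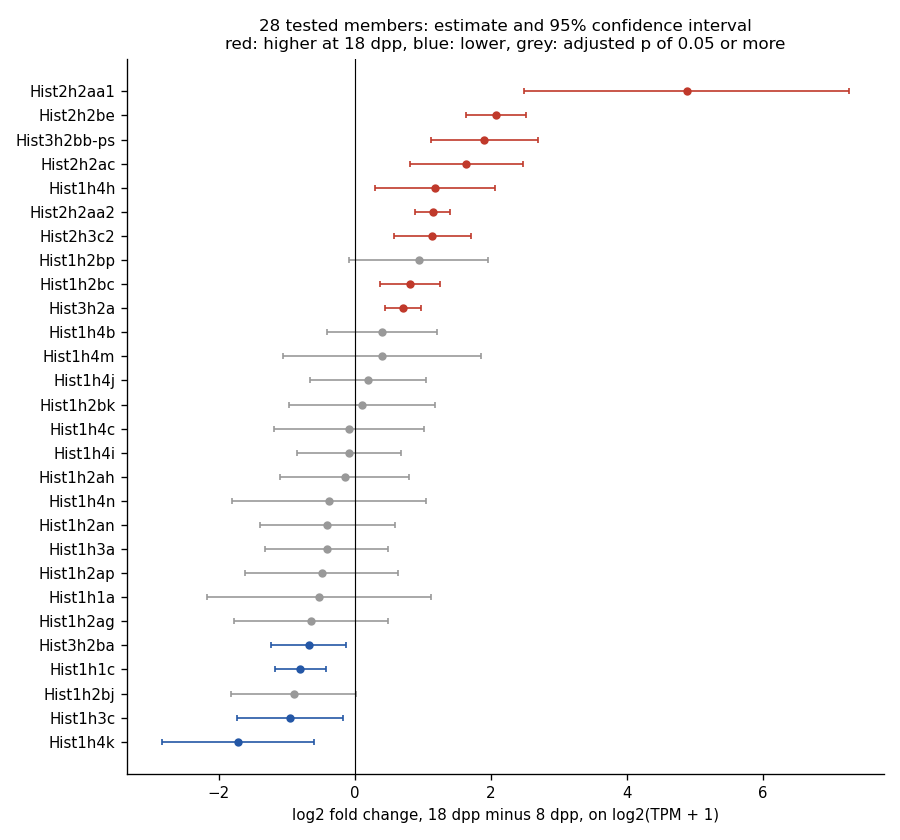
Log2 fold change from 8 to 18 dpp on the log2(TPM + 1) scale (horizontal axis) for the 28 tested members (vertical axis), with 95% confidence intervals from limma, red for the 9 members called higher at 18 dpp, blue for the 4 called lower and grey for the rest. Hist2h2aa1 has the largest estimate, 4.87, and the widest interval, from 2.48 to 7.27. The estimates of low members depend on the added 1 TPM, and those of Hist2h2ac, listed at 0 in every 8 dpp mouse, and Hist1h4k, listed at 0 in every 18 dpp mouse, are not measured folds.

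Hist2h2aa1 and Hist2h2aa2 are a pair of H2A genes in opposite orientation on chromosome 3, at chr3:96245497-96246082 (plus strand) and chr3:96239749-96240276 (minus strand). In M21 the whole 528-base transcript of Hist2h2aa2 was identical to the last 528 of the 586 bases of Hist2h2aa1. The annotated transcripts thus differed only by the 58 further 5′ bases of Hist2h2aa1. How reads were divided between them therefore rested on few bases, and the level of each copy is uncertain while the sum of both is not affected by that division. RefSeq places the start of Hist2h2aa2 upstream of its M21 start. Whether Hist2h2aa2 holds the same 58 bases there was not tested. Part of what is listed as Hist2h2aa1 could therefore come from Hist2h2aa2. Both genes are also covered by annotated transcripts on the opposite strand, Gm20632 over Hist2h2aa2 and Gm20633 over Hist2h2aa1, and Gm20634 overlaps Hist2h2aa1 on the same strand. In the mice of 8 dpp (mean ± SD, n = 3) and of 18 dpp (n = 5), Gm20632 was at 6.18 ± 0.841 and 11.1 ± 2.05 TPM, Gm20633 at 1.64 ± 0.251 and 4.68 ± 0.402, and Gm20634 at 5.66 ± 1.26 and 11.7 ± 0.988. Whether the counting used strand is not stated in the sources used here, so reads of these genes could have been shared.

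Summed, the pair was higher in poly-A RNA than any other member at every age. Histone genes outside the clusters were not compared. The 8 dpp mice were at 72.2, 62.0 and 71.2 TPM, and the 10 dpp mice at 68.5, 62.8, 50.1, 67.5 and 65.9 TPM. The 12 dpp mice were at 126.5, 132.5, 103.8, 103.9 and 104.5 TPM, and the 14 dpp mice at 118.2, 107.5, 122.8, 100.4 and 97.5 TPM. Every mouse of 12 and 14 dpp thus lay above every mouse of 8 and 10 dpp. The 16 dpp mice were at 143.0, 117.0, 150.8, 118.5 and 136.4 TPM, and the 18 dpp mice at 268.8, 203.3, 249.8, 181.0 and 174.0 TPM. The 18 dpp mice did not overlap with any earlier age. The adult samples were at 315.4, 329.0, 336.1 and 362.2 TPM.

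The pair was 0.85 higher on the log2(TPM + 1) scale at 12 than at 10 dpp (SE 0.112, adjusted p = 3.24e-06) and 0.68 higher at 18 than at 16 dpp (SE 0.112, adjusted p = 2.22e-05). From 14 to 16 dpp the difference was 0.28 (SE 0.112, adjusted p = 0.069), from 8 to 10 dpp it was -0.13 (SE 0.130, adjusted p = 0.833) and from 12 to 14 dpp it was -0.06 (SE 0.112, adjusted p = 0.906). From 8 to 18 dpp the pair rose by 1.62 (SE 0.130, adjusted p = 1.85e-11). It made up 41.3% ± 1.39 of the summed member TPM at 8 dpp (SD, n = 3), 60.3% ± 4.74 at 18 dpp (n = 5) and 70.5% ± 1.17 in the adult samples (n = 4).

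The part of the pair listed as Hist2h2aa1 varied widely among mice of the same age, and its difference between ages was not tested. The number of mice in which Hist2h2aa1 was listed at 0 was 2 of 3 at 8 dpp and 3 of 5 at 10 dpp. It was 2 of 5 at 12 dpp, 1 of 5 at 14 dpp and 0 of 5 at both later ages. Its values were 9.88, 0 and 0 TPM in the 8 dpp mice and 104.0, 67.3, 102.5, 35.6 and 41.6 TPM in the 18 dpp mice. The Hist2h2aa1 part of the pair was between 0% and 35.9% in the mice of 12 dpp, 25.9% ± 10.3 at 16 dpp, 31.3% ± 9.25 at 18 dpp (SD, n = 5) and 44.7% ± 3.90 in the adult samples (n = 4). Hist2h2aa2 alone was at 62.3, 62.0 and 71.2 TPM at 8 dpp and 164.8, 136.0, 147.3, 145.4 and 132.4 TPM at 18 dpp. It rose by 1.14 (SE 0.122, adjusted p = 4.55e-09) on the log2 scale, and Hist2h2aa1 by 4.87 (SE 1.17, adjusted p = 5.96e-04). The value for Hist2h2aa1, with 2 of 3 mice of 8 dpp at 0, was 3.27 with 5 TPM added and 7.11 with 0.1 TPM added.

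**Figure D4:**
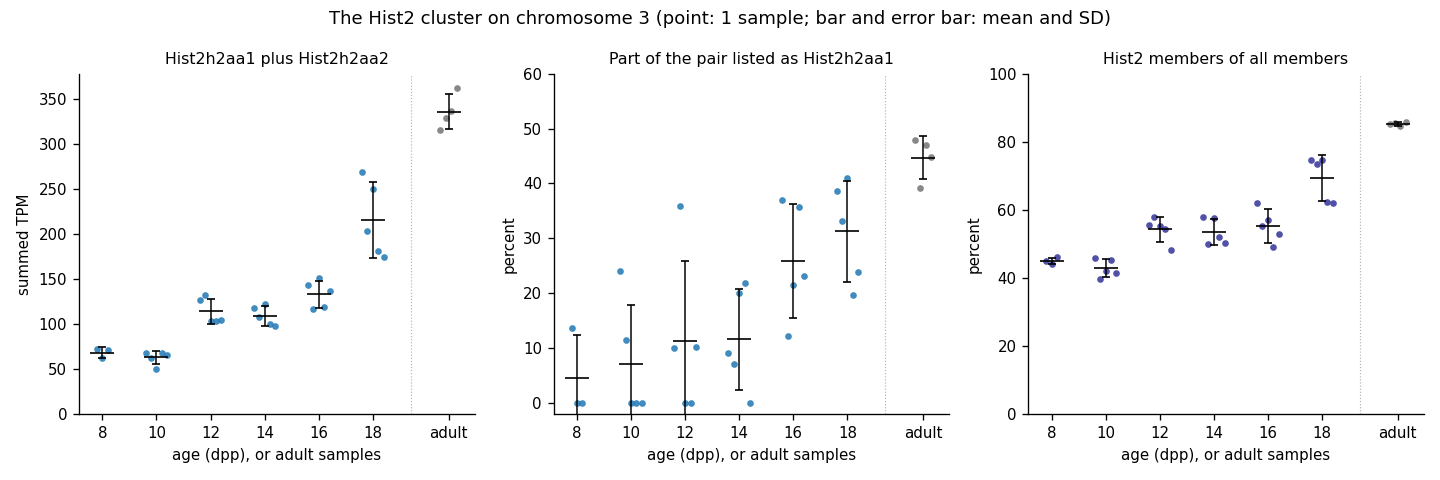
Summed TPM of Hist2h2aa1 and Hist2h2aa2 (left), the percentage of that sum listed as Hist2h2aa1 (middle) and the percentage of all member TPM from the Hist2 cluster (right), by age and in the adult samples, with 1 point for each sample and bars for the mean and SD. The pair is between 174.0 and 268.8 TPM in the 18 dpp mice and at most 150.8 TPM in any younger mouse, and the middle panel shows samples at 0 up to 14 dpp.

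The promoters of this pair, and of Hist2h2ac and Hist1h2ac, which have divergent H2B neighbors, are shown as the 250 bases before the RefSeq start on GRCm38.p6, with each match to TATAAA (the TATA box), CCAAT (the CCAAT box) or ATTTGCAT (an octamer found in many H2B promoters), on either strand, in capitals.
Hist2h2aa1: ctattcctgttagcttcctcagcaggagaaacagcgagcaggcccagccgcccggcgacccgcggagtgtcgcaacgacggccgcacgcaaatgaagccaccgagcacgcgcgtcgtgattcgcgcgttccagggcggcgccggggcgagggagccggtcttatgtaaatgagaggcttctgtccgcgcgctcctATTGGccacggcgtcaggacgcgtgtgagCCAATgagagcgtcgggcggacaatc
Hist2h2aa2: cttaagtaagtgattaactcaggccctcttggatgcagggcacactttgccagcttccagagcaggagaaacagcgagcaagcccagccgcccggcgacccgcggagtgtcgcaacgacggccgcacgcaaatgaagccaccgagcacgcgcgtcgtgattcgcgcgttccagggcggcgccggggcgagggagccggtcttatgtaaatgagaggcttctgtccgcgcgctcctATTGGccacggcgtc
Hist2h2ac: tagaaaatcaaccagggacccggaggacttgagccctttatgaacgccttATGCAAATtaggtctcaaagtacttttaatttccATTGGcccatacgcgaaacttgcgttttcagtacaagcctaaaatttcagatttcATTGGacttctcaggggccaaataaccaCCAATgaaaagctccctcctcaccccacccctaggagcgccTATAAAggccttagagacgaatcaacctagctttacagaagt
Hist1h2ac: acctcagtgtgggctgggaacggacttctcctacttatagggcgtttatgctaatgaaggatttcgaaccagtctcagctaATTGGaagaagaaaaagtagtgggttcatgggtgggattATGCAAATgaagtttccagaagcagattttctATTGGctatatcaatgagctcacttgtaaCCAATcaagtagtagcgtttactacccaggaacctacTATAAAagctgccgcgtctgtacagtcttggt
The windows lie at chr3:96245247-96245496 (plus strand), chr3:96240375-96240624 (minus), chr3:96220881-96221130 (minus) and chr13:23683960-23684209 (minus). Those of Hist2h2aa1 and Hist2h2aa2 shared a run of 169 identical bases and held 2 and 1 CCAAT boxes, neither with the other motifs. The Hist2h2aa2 window stopped where this run ended, and the second CCAAT box of Hist2h2aa1 lay beyond that point. The counts of 2 and 1 therefore do not show a difference between the copies. Those of Hist2h2ac and Hist1h2ac, which reach the starts of Hist2h2be and Hist1h2bc, each held all 3 motifs, with 3 CCAAT boxes. Of the 62 members, 54 matched a window. TATAAA was in 46.3% of these and in 12.4% of all 32851 windows, CCAAT in 79.6% and 33.8%, and ATTTGCAT in 16.7% and 1.6%. A match to letters is not a bound site.

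Hist2h2be, an H2B gene at chr3:96221119-96223738, had a late and steep rise. It was at 4.15, 5.26 and 4.99 TPM in the 8 dpp mice and between 2.81 and 5.17 TPM in all 15 mice of 10 to 14 dpp. The 16 dpp mice were at 12.4, 6.71, 6.36, 9.37 and 12.4 TPM, and the 18 dpp mice at 29.8, 32.2, 27.5, 16.1 and 16.0 TPM. Every 16 dpp mouse lay above all younger mice, and every 18 dpp mouse above all 16 dpp mice. The adult samples were higher again, at 61.9, 57.9, 55.8 and 59.2 TPM. Hist2h2be rose by 1.10 on the log2 scale from 14 to 16 dpp (SE 0.184, adjusted p = 6.36e-05; 0.70 with 5 TPM added), by 1.27 from 16 to 18 dpp (SE 0.184, adjusted p = 5.04e-06) and by 2.07 from 8 to 18 dpp (SE 0.213, adjusted p = 2.2e-09). None of its 100-base stretches occurred unchanged in an M21 transcript of another gene. Near-identical stretches and NONCODE transcripts were not searched, so the search cannot exclude reads shared with these.

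Its divergent neighbor Hist2h2ac, an H2A gene whose start lies 238 bases away on the other strand, was listed at 0 in all 8 mice of 8 and 10 dpp. The 16 dpp mice were at 0, 0.60, 1.02, 1.21 and 0.48 TPM, and the 18 dpp mice at 2.25, 7.57, 3.43, 0 and 1.37 TPM. The adult samples were between 5.42 and 8.09 TPM. Hist2h2ac was higher at 18 than at 16 dpp by 0.96 on the log2 scale (SE 0.351, adjusted p = 0.0234), with the mice of the 2 ages overlapping, and this call was lost without mouse 1 of 16 dpp or mouse 2 or 3 of 18 dpp (0.59 to 0.83) or with 0.1 TPM added (1.46, against 0.42 with 5 TPM added). Its test against 8 dpp gave an adjusted p of 8.45e-04. Hist2h2ac reached 3 TPM in 2 mice, both of 18 dpp, and was at most 1.21 TPM at other ages, so both tests were made only because of the age at which it was high.

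Hist1h2bc, an H2B gene at chr13:23684199-23692908, was the highest member outside the Hist2h2aa pair in the juvenile mice. It was at 26.6, 18.6 and 20.2 TPM in the 8 dpp mice and 17.5, 21.1, 18.5, 24.4 and 28.6 TPM in the 10 dpp mice. At 12 dpp the mice were at 35.6, 32.6, 28.8, 32.3 and 40.6 TPM, all above the 10 dpp mice, a rise of 0.62 (SE 0.186, adjusted p = 0.0177) that was not called without mouse 1 or 3 of 10 dpp or mouse 5 of 12 dpp (0.54 to 0.56). At 16 dpp they were at 33.6, 38.0, 43.0, 62.7 and 62.9 TPM, and at 18 dpp at 29.5, 31.4, 33.3, 47.8 and 56.3 TPM, a difference that was not called (-0.27, SE 0.186, adjusted p = 0.228). From 8 to 18 dpp it rose by 0.80 (SE 0.215, adjusted p = 0.00174), with no overlap between the mice of these ages. In contrast to Hist2h2be, the adult samples were low, at 2.65, 6.10, 3.38 and 3.41 TPM. Its divergent neighbor Hist1h2ac, 250 bases away, had a mean of 0.134 TPM over the 28 mice against 34.6 TPM for Hist1h2bc, and 0.02 TPM in the adult samples.

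The 18 dpp mice divided by mouse number in these genes. Mice 1, 2 and 3 were at 27.5 to 32.2 TPM for Hist2h2be and 29.5 to 33.3 TPM for Hist1h2bc, and mice 4 and 5 were at 16.0 and 16.1 TPM and at 47.8 and 56.3 TPM. Summed Sertoli cell markers were 3595 to 3760 TPM in mice 1 to 3 and 4683 and 4693 TPM in mice 4 and 5, and summed peritubular cell markers were 524 to 586 and 1006 to 1034 TPM. At 16 dpp the Sertoli sum did not divide in this way, with 5436 to 7420 TPM in mice 1 to 3 and 6280 and 5560 TPM in mice 4 and 5. The peritubular sum did, with 827 to 1027 TPM in mice 1 to 3 and 1519 and 1162 TPM in mice 4 and 5. So did Hist1h2bc, at 33.6 to 43.0 TPM and at 62.7 and 62.9 TPM, while Hist2h2be did not, at 6.36 to 12.4 TPM and at 9.37 and 12.4 TPM. The part of this makeup in the levels of the genes was not tested.

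Hist1h2bp, an H2B gene at chr13:21787461-21789213, was nearly absent in the younger mice and prominent in the adult samples. It was at 0.52, 1.28 and 0.90 TPM in the 8 dpp mice, at 0, 0, 2.62, 0.71 and 0.79 TPM in the 16 dpp mice and at 5.31, 5.92, 4.65, 0 and 1.43 TPM in the 18 dpp mice. The adult samples were at 21.4, 25.9, 28.5 and 27.7 TPM. It was higher at 18 than at 16 dpp by 1.15 (SE 0.429, adjusted p = 0.0257), with overlapping mice, and did not pass the test against 8 dpp (0.94, SE 0.496, adjusted p = 0.0953). The call against 16 dpp was lost without mouse 1 or 2 of 16 dpp and without mouse 1, 2 or 3 of 18 dpp, with differences of 0.92 to 0.99, and with 0.1 TPM added (2.05, against 0.49 with 5 TPM added). Hist1h2bp reached 3 TPM in 3 mice, all of 18 dpp, so it was tested only because of that age. Its transcripts were a 1-exon form with the stem-loop and a 2-exon form without it, at 1.2 ± 1.42 and 2.26 ± 2.68 TPM at 18 dpp (SD, n = 5). Of the 100-base stretches of these 2 forms, 51.1% and 34.7% also occurred in other genes, mostly Hist1h2bq. Its divergent neighbor Hist1h2an was listed at 0 in every 18 dpp mouse and every adult sample. No member had 2 transcripts above the minimum level for a test of transcript shares.

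**Figure D5:**
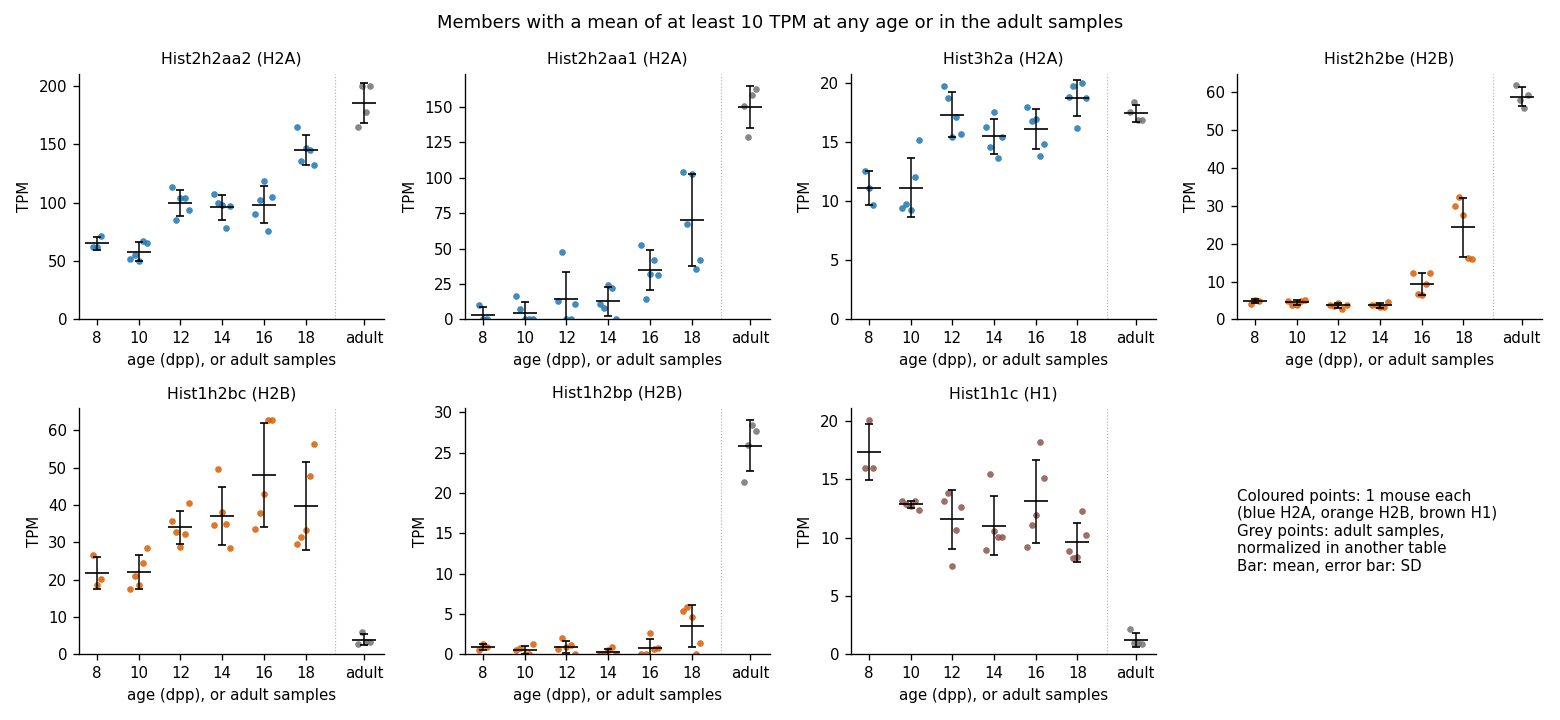
TPM (vertical axes) of the 7 members with a mean of at least 10 TPM at any age or in the adult samples, by age in days postpartum and in the adult samples (horizontal axes), with 1 point for each sample and bars for the mean and SD. Hist2h2aa2, Hist2h2aa1 and Hist2h2be are highest in the adult samples, Hist1h2bp is at 21.4 TPM or more only there, and Hist1h2bc and Hist1h1c are lowest there.

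Hist3h2a, an H2A gene at chr11:58954685-58956830, was at 12.5, 11.1 and 9.64 TPM in the 8 dpp mice and at 19.7, 18.7, 15.4, 17.1 and 15.7 TPM in the 12 dpp mice. It was higher at 12 than at 10 dpp by 0.61 (SE 0.110, adjusted p = 1.93e-04) and then stayed between 13.6 and 20.0 TPM up to 18 dpp, with 16.9 to 18.4 TPM in the adult samples. The rise from 8 to 18 dpp was 0.71 (SE 0.128, adjusted p = 2.14e-05). Its transcript overlaps Trim17 on the same strand, whose mean was 0.923 ± 0.315 TPM in the 8 dpp mice (SD, n = 3) and 3.85 ± 1.68 TPM in those of 18 dpp (n = 5). The divergent Hist3h2bb-ps, annotated as a pseudogene of H2B and 172 bases away, was at 0, 0 and 0.54 TPM in the 8 dpp mice and at 5.71, 0.78, 5.87, 3.45 and 3.11 TPM in the 18 dpp mice. It rose by 1.90 (SE 0.382, adjusted p = 8.31e-05) on the log2 scale, or 0.73 with 5 TPM and 4.12 with 0.1 TPM added, and averaged 6.25 ± 1.64 TPM in the adult samples (SD, n = 4).

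Hist1h1c encodes the linker histone H1.2, which binds DNA between nucleosomes, and was the main H1 gene. It was at 16.0, 20.1 and 16.0 TPM in the 8 dpp mice and 8.82, 8.23, 8.35, 12.3 and 10.3 TPM in the 18 dpp mice. The groups did not overlap, and Hist1h1c fell by 0.80 on the log2 scale (SE 0.183, adjusted p = 3.91e-04). The adult samples were at 2.15, 0.93, 0.98 and 0.86 TPM. Hist1h1a, the next H1 gene, was listed at 0 in 14 of the 28 mice, was never above 5.55 TPM and was not called over the ages (adjusted p = 0.75). The authors' gene table gave it at 2.10 to 8.80 TPM, up to 8.16 TPM from the summed transcripts, with a mean of 4.26 against 1.81 TPM over the 28 mice, so its level is uncertain.

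The H3 and H4 members were low throughout. Among the H3 genes, Hist2h3c2 was at 0.93, 1.62 and 1.34 TPM in the 8 dpp mice and at 3.64, 3.48, 5.13, 3.71 and 4.33 TPM in the 18 dpp mice. It was higher at 12 than at 10 dpp by 1.72 (SE 0.238, adjusted p = 6.35e-06) and rose by 1.14 from 8 to 18 dpp (SE 0.275, adjusted p = 6.58e-04). With 5 and 0.1 TPM added these differences were 0.68 and 3.17, and 0.52 and 1.59. Gm20634, which lies elsewhere in the Hist2 cluster, held 61.6% of the 100-base stretches of Hist2h3c2. Hist1h3c fell by 0.95 (SE 0.381, adjusted p = 0.0296), from 1.67, 2.67 and 0.76 TPM at 8 dpp to 0.51, 1.84, 0, 0 and 0 TPM at 18 dpp, a call that was lost without mouse 1 or 2 of 8 dpp or mouse 3, 4 or 5 of 18 dpp (-0.93 to -0.70) and with 5 TPM added (-0.29, against -2.64 with 0.1 TPM added). Hist1h3a averaged 1.56 TPM over the 28 mice and was not called.

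Among the H4 genes, Hist1h4i was the highest, with a mean of 4.00 TPM over the 28 mice, and did not pass the test over the ages (adjusted p = 0.901), nor did Hist1h4m at 2.18 TPM (adjusted p = 0.699). In the adult samples Hist1h4i was at 0.395 ± 0.456 TPM (SD, n = 4) and Hist1h4m was listed at 0 in each. Hist1h4k, at 4.19, 2.71 and 0.85 TPM in the 8 dpp mice, was listed at 0 in every 18 dpp mouse and every adult sample and was called lower at 18 dpp (adjusted p = 0.007), but not without mouse 1 of 8 dpp. Hist1h4h was higher at 18 than at 8 dpp by 1.18 (SE 0.429, adjusted p = 0.0167). It went from 0, 1.46 and 2.09 TPM to 5.33, 1.31, 4.04, 4.03 and 3.80 TPM, with overlapping mice. It was not called without mouse 1 of 8 dpp (0.70) or after quantile normalization (0.89). With 5 and 0.1 TPM added its difference was 0.49 and 2.32. The H2B gene Hist3h2ba, the other member called lower at 18 dpp, fell by 0.68 (SE 0.269, adjusted p = 0.0282), from 1.2, 2.25 and 3.10 TPM to 1.84, 0, 1.41, 1.50 and 0.56 TPM, a call that was lost without mouse 2 or 3 of 8 dpp or mouse 2 or 5 of 18 dpp (-0.64 to -0.44). Its difference was -0.25 and -1.44 with 5 and 0.1 TPM added.

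Sequence shared with other genes limited the resolution of many members. In 26 of the 62 members, more than 50% of the 100-base stretches of every annotated transcript also occurred in a transcript of another gene. Both strands were searched, and 5 members had no such stretch. Among the 26, Hist2h2aa1, Hist2h2aa2, Hist2h3c1, Hist2h3b and Hist2h2ab shared most with an annotated transcript that overlaps them. The H2A gene Hist1h2ap, lower at 12 than at 10 dpp by 1.65 on the log2 scale (SE 0.472, adjusted p = 0.0126; -0.63 and -3.56 with 5 and 0.1 TPM added), shared 92.2% of its stretches with Hist1h2ao. In Hist1h4m and Hist1h4k the shares were 88.1% and 64.3%.

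Genes that make and process histone messages were read for comparison. Of 19 listed genes, 17 were tested, and 9 were higher and 4 lower at 18 than at 8 dpp, with a median log2 fold change of 0.38 against -0.09 over all genes, of which 31.8% were higher and 36.3% lower. Slbp, which encodes the stem-loop binding protein and was the highest of them, rose from 126.1 ± 4.14 TPM (SD, n = 3) to 178.9 ± 8.40 TPM (n = 5), or 0.50 on the log2 scale (SE 0.0733, adjusted p = 1.01e-06). Mblac1, which encodes an endonuclease for histone pre-mRNA, had the largest change, 1.96 (SE 0.229, adjusted p = 2.3e-08), at levels of 0.743 ± 0.0586 and 5.92 ± 1.40 TPM. Npat, an activator of histone gene transcription in S phase, fell by 0.45 (SE 0.0947, adjusted p = 1.43e-04). Zfp473, a component of the processing complex with the U7 RNP, rose by 1.63 (SE 0.175, adjusted p = 4.84e-09).

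Of 14 genes of S phase, 8 were lower and 5 higher at 18 dpp, beside 36.3% and 31.8% of all genes, with a median log2 fold change of -0.36 beside -0.09. Pcna, the sliding clamp of DNA polymerases and the highest of them, rose by 0.51 (SE 0.0636, adjusted p = 6.25e-08), and Tyms, which makes thymidylate for DNA synthesis, had the largest change and fell by 1.13 (SE 0.169, adjusted p = 1.47e-06). Of 8 genes for histone chaperones and related factors, 3 were higher and 3 lower, near the 68.2% called among all genes, with a median of -0.12 beside -0.09. Nasp, a chaperone of H1 and of H3 with H4, rose from 239.1 ± 28.8 TPM (SD, n = 3) to 620.3 ± 175.8 TPM (n = 5), by 1.33 (SE 0.150, adjusted p = 1.29e-08), and Rbbp7, a histone-binding protein and the highest of them, fell by 0.54 (SE 0.119, adjusted p = 2.3e-04).

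The testis histones left out of the members were low in poly-A RNA. Hist1h1t, the linker histone of pachytene spermatocytes, was at most 1.24 TPM in any juvenile mouse and at 3.40 ± 0.980 TPM in the adult samples (SD, n = 4). In the 18 dpp mice Hist1h2ba was at 3.47 ± 1.94 TPM and Hist1h2aa at 1.52 ± 1.09 TPM (SD, n = 5).

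The makeup of the samples changed along with these levels. The range of summed TPM of 6 spermatocyte markers was 214 to 322 at 8 dpp, 1386 to 1562 at 18 dpp and 1362 to 1581 in the adult samples, and that of 6 spermatogonium markers was 1013 to 1138, 454 to 655 and 29.3 to 35.4. Markers of 8 Sertoli genes summed to 7221 to 8110 TPM at 8 dpp, 3595 to 4693 at 18 dpp and 346 to 505 in the adult samples, and 5 peritubular markers to 1051 to 1160, 524 to 1034 and 5.57 to 10.7. Most of the Sertoli sum was Clu, with means of 5377 TPM at 8 dpp and 2899 at 18 dpp, and Rhox5 alone was higher at 18 dpp. Among the spermatocyte markers, Piwil1 and Spo11 were higher in the adult samples than at 18 dpp, and the others were lower. The 6 spermatid markers summed to 2.48 to 5.67 TPM at 8 dpp, 6.13 to 17.0 at 18 dpp and 872 to 1189 in the adult samples. No marker of these lists was at 0 in all juvenile mice, and the part of each cell type in the histone levels was not tested. At 18 dpp, Leydig, macrophage, red blood cell and endothelial markers summed to 169 to 472, 51.0 to 99.7, 250 to 367 and 31.8 to 65.2 TPM.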

How the data were processed

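Poly-A libraries were sequenced by the authors with 100 bp paired-end reads and aligned with Bowtie 1.0.0 to Ensembl 75 and NONCODE 4 transcripts and piRNA precursors, and RSEM 1.2.8 gave the deposited TPM values. The 2 mice of 8 dpp the authors omitted were not used. A gene table deposited by the authors held a transformed score, exp(log2(TPM + 1)) - 1, and was converted back and used only as an alternative, where Hist1h1a alone of 28 members differed by over 0.2 TPM, by up to 8.16 TPM. Transcript TPM was summed by gene here. TPM keeps no depth, so errors are the spread between mice. Lists of genes by substage made by the authors were not used.

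Ages were compared with limma 3.58.1 (R 4.3.3) on log2(TPM + 1), all 28 mice in 1 model, genes of at least 3 TPM in 1 mouse, with a prior variance that depends on mean level, and p-values were adjusted over 20365 genes by Benjamini-Hochberg. Members and lists were chosen with earlier results of these data known. Members named were those with a mean of at least 10 TPM, the 2 highest of each class, the 3 largest rises and falls called from 8 to 18 dpp, and divergent neighbors within 1000 bases. Hist1h2ap, Hist1h4h, Hist3h2ba, Npat and Zfp473 were named after their values were seen. Of the 68 member transcripts, 67 were found in M21. Mouse numbers did not pair mice of different ages.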

Additional observations from a re-analysis of the deposited data

Results flagged for a closer look

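A sample was looked at again where its distance from the nearest of its group, relative to the group's whole range, passed Dixon's critical value, in 16 named members and 12 sums. Of the 162 groups of 4 or 5 samples looked at, 13 (8.02%) were flagged. Chance marks about 1 in 20 where values are normally distributed, which groups with several samples at 0 are not. Some groups share a gene, as Hist1h1c and the H1 sum do, so the groups were not independent. Hist1h1c was at 15.4 TPM in mouse 2 of 14 dpp, against 8.95 to 10.6 TPM in the others, and at 2.15 TPM in adult sample 1, against 0.86 to 0.98 TPM, which also set that sample's H1 sum of 2.20 TPM apart. Hist2h2aa1 was listed at 47.6 TPM in mouse 2 of 12 dpp, against 0 to 12.7 TPM. The lowest summed member TPM at 10 dpp was 130.0, in mouse 3, against 161.7 to 173.0. Mouse 5 of 12 dpp had an H2B sum of 59.9 TPM, against 44.0 to 47.7 TPM, and a sum of 58.5 TPM over the members under 10 TPM, against 37.7 to 41.3 TPM. The H3 sum was 7.39 TPM in mouse 2 of 10 dpp, against 3.78 to 4.53 TPM, and 3.70 TPM in mouse 2 of 16 dpp, against 5.65 to 6.31 TPM. Adult sample 2 had 136.8 TPM outside the Hist2h2aa pair, against 141.0 to 141.7 TPM. Among low genes, Hist3h2bb-ps was at 0.60 TPM in mouse 2 of 10 dpp with the others at 0, Hist1h3c at 1.84 TPM in mouse 2 of 18 dpp against 0 to 0.51 TPM, and Hist1h3a at 0 in mouse 5 of 18 dpp against 1.12 to 1.50 TPM.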

How the results depend on the processing

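No call reversed its direction under any alternative. With 0.1 and with 5 TPM added before the log, 14 members differed over the 6 ages and 13 between 18 and 8 dpp, while the differences of low members were larger and smaller. The count of members called between 16 and 18 dpp, 7 in the report, was 4 with no filter on low values and 3 with only these ages in the model, and 4 to 8 when each mouse was left out, with 4 without mouse 2 or without mouse 3 of 18 dpp. Leaving out each mouse in turn gave 10 to 13 members for 18 against 8 dpp, 13 to 16 over the 6 ages, 4 to 5 for 12 against 10 dpp and 2 to 3 for 16 against 14 dpp. Calls were lost in several alternatives for Hist1h2bp, Hist1h1c and Hist2h2ac (18 against 16 dpp) and Hist1h3c and Hist3h2ba (18 against 8 dpp). The same held for Hist1h4h (16 against 14 dpp) and Hist1h2bc (12 against 10 dpp). Hist1h4k and Hist1h4h (18 against 8 dpp) lost theirs without mouse 1 of 8 dpp, and Hist1h4h also after quantile normalization. The cause was not tested. Summed member TPM at 18 dpp was 399.5 after median-of-ratios scaling, and without Hist2h2aa2 it was 100.5 at 8 dpp and 209.6 at 18 dpp. Leaving out 1 sample moved the adult sum between 466.7 and 482.3. These scalings moved the median of all genes from -0.0943 to 0.0494 (median-of-ratios) and -0.264 (quantile), and members called higher and lower were then 9 and 3, and 8 and 5. With Hist2h2aa1 and Hist2h2aa2 summed as 1 gene, an alternative chosen after seeing the data, 12 members were called from 8 to 18 dpp. Deviations of same-numbered mice correlated at -0.248 to 0.252, and with a replicate block on mouse number 13 members were called for 18 against 8 dpp and 2 for 16 against 14 dpp, against 3. With mice 1 to 3 against the later-numbered as a covariate, every count was as reported. The alternatives for transcript shares were not run because no member could be tested.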
